A study of Mus musculus with 74 samples.

Results

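The genes described here are 10 contractile genes of smooth muscle and pericytes, namely Acta2, Actg2, Myh11, Tagln, Cnn1, Mylk, Des, Lmod1, Myl9 and Rgs5. They were taken from the tables by gene name, and all 10 were listed in each of the 5 tables used here, which list between 17363 and 19321 genes. RNA-seq was done on mouse primary mammary tumors (PTs) and lung metastases (Lung mets), 74 samples in all, and asks how expression in metastases differs from that in PTs. The FVB Her2 mice carry a neu (Her2) transgene under the mouse mammary tumor virus (MMTV) promoter, which is active in mammary epithelium, and gave 6 PTs and 6 Lung mets. The FVB C3Tag mice carry a viral T antigen under the C3(1) promoter and gave 7 PTs and 7 Lung mets. The BALB and SEAGN PyMT-F1 mice are offspring of FVB MMTV-PyMT males and females of strains labelled BALB/NJ or SEA/GNJ, which the methods call BALB/cJ and Sea/GnJ, with 6 PTs and 6 Lung mets each, so that each sample carries the PyMT transgene and 1 FVB genome. A further PyMT-F1 table was deposited under the strain AKR, for which 6 PTs and 6 Lung mets are labelled. It is called AKR-named here because the ratios of its means equalled those that a supplementary table of the study gives for BL6 for the genes checked by hand, so the mice behind it are uncertain. Across the 36 PyMT-F1 samples, AKR included, the genotype label and the sample name give different strains for 23, and the name was followed. For FVB Myc (6 PTs and 6 Lung mets, MMTV promoter) no level was used here. All animals were female, the labels give no ages, and PTs of 1 animal were combined. Per the methods, PyMT animals were kept until humane endpoints were reached or close. In the Her2, C3Tag and Myc models, PTs of animals with a single lesion were surgically resected. Those animals were then kept for a fixed further time, or less if they neared humane endpoints. RNA came from fragments of the ground, combined PTs and from entire metastases, per the methods. Such bulk samples can hold tumor cells, vessels, stroma and, for Lung mets, neighboring lung, and the share of each was not measured.

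Smooth muscle cells shorten when myosin pulls on actin filaments. Calcium and calmodulin activate myosin light chain kinase, the kinase phosphorylates the regulatory light chain of myosin, and a phosphatase removes the phosphate again. Many genes of this machinery are switched on by serum response factor (Srf) with its cofactors, which binds a short DNA element called the CArG box. In the mammary gland the same proteins are made by myoepithelial cells, which squeeze milk from the alveoli, and in tumors by vessel walls and by activated fibroblasts. In the lung they mark the muscle of airways and vessels, and the intermediate filament protein desmin is also abundant in skeletal and heart muscle. In bulk tissue, fewer cells of a type and less RNA per cell cannot be told apart.

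RefSeq promoters, each reaching from 250 bases before to 50 bases after a gene's start, were available for 7 of the 10 genes on GRCm38.p6. Those of Actg2, Myh11 and Tagln were not available and were not searched. For Mylk the promoter searched, chr16:34784700-34784999, lies inside the gene as annotated by GENCODE M21. The GENCODE start of Mylk, at 34745210, was not searched. The 7 promoters were searched for the CArG box, which reads CC, 6 letters that are A or T, and GG, and which is the same on both strands. An exact box was found in 1 of the 7 promoters, that of Myl9, against 1.63% of 32851 promoters. A box with at most 1 differing letter was found in 3 of the 7, those of Lmod1, Myl9 and Acta2, against 21.1% of all promoters. These 6 boxes are shown because they are the only matches to the binding element in the 7 promoters searched. Each has 10 bases on either side, with the box in capitals. The first Lmod1 box starts 189 bases before the gene's start and the second 164 bases before it, in stretches at chr1:135324614-135324643 and chr1:135324639-135324668 on the plus strand. The Myl9 boxes start 161 and 99 bases before its start, in stretches at chr2:156775293-156775322 and chr2:156775355-156775384 on the plus strand. The Acta2 boxes start 84 and 34 bases before the RefSeq start, in stretches at chr19:34255438-34255467 and chr19:34255388-34255417 on the minus strand. In the GENCODE M21 annotation both Acta2 boxes overlap an exon of the gene. A match is a description of letters and no measure of binding.
Lmod1 box 1: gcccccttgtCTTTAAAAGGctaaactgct
Lmod1 box 2: ctgctctgtaCTAAATTTGGtcacgcagcg
Myl9 box 1, exact: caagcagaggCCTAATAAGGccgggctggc
Myl9 box 2: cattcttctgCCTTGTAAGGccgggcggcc
Acta2 box 1: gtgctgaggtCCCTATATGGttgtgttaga
Acta2 box 2: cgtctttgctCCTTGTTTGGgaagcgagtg

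The actin members resemble each other in sequence. The coding sequences of Acta2 (1134 bases) and Actg2 (1131 bases) were 84.2% identical, and the longest run of bases that their transcripts shared was 29. Acta2 was 85.4% identical to Acta1, the skeletal muscle actin, and Actg2 was 84.9% identical to it. The first 60 columns of the aligned coding sequences are shown to let the similarity be seen, with capitals for bases that differ or that the other gene lacks. How reads that match both genes were counted is not given in the sources used here, and read assignment was not tested.
Acta2: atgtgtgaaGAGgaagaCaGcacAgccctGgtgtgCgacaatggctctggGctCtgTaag
Actg2: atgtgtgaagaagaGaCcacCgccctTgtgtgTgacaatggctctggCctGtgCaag

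All levels below are the authors' means of normalized counts in a tissue, given per gene and without the values of single samples. No spread between animals, no n and no test could therefore be attached to any difference, and "higher" or "lower" compares a pair of means only. Each table was normalized separately, so levels are given side by side and not compared between tables. Sequencing depth per sample is likewise unknown. The log2 ratio is that of the Lung met mean over the PT mean, and its median over all genes lay between -0.0013 (Her2) and 0.03 (BALB).

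**Figure D1:**
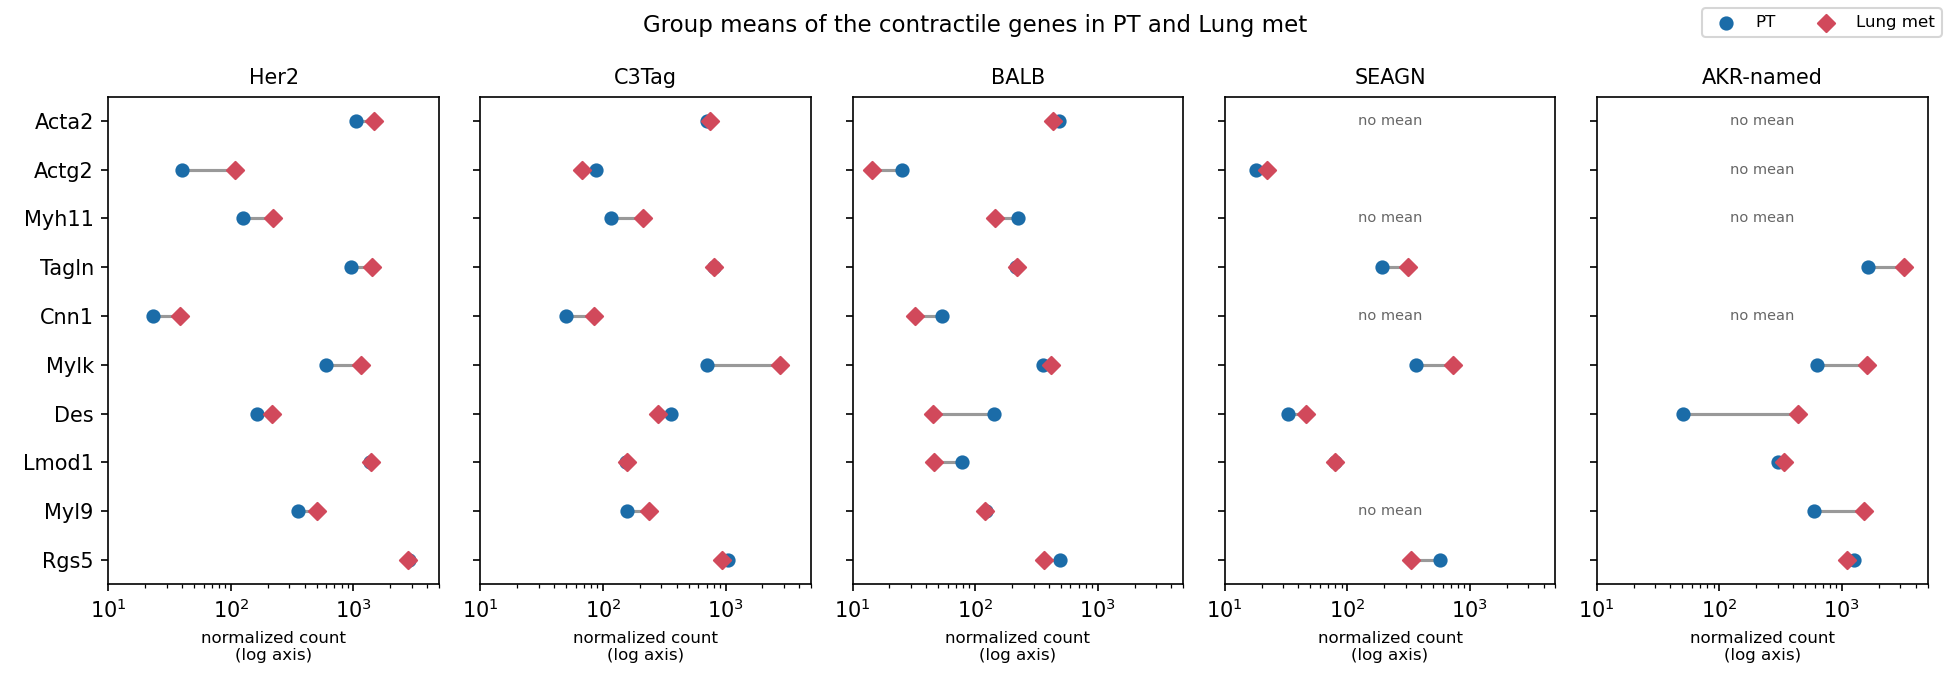
Mean of each contractile gene in PT (blue circles) and Lung met (red diamonds) in the 5 tables, as the authors' normalized count on a log axis, with a gray line joining both means and "no mean" where a table lists the gene without one. The widest gaps are those of Mylk in C3Tag (701 against 2797) and Des in AKR-named (50.9 against 440).

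Of the members with a mean, most had the higher one in Lung met in Her2, C3Tag, SEAGN and AKR-named and the lower one in BALB. In C3Tag the median of the members still lay near 0. Their median log2 ratio was 0.53 in Her2, 0.05 in C3Tag and -0.54 in BALB over all 10 genes. In SEAGN it was 0.40 and in AKR-named 1.16, each over the 6 genes with a mean. In Her2, 9 of 10 members had the higher mean in Lung met, and 1 of them was at least 2-fold higher, against 2.38% of all genes. No member was at least 2-fold lower there, against 1.43% of all genes. In C3Tag 7 of 10 members were higher and 1 reached 2-fold, against 7.42% of genes, while 0 were 2-fold lower, against 1.70%. With both tissues of C3Tag scaled to the same total, 4 members reached 2-fold and the median was 0.85, since 1 transcript, Gm22614, made up 38.3% of the PT total. In BALB 8 of 10 members were lower, with 1 at least 2-fold lower (2.40% of genes) and 0 at least 2-fold higher (2.26%). In SEAGN 4 of 6 were higher, with 1 at least 2-fold higher (2.86% of genes) and 0 at least 2-fold lower (3.22%). In AKR-named 5 of 6 were higher, with 3 at least 2-fold higher (7.31% of genes) and 0 at least 2-fold lower (1.73%). Whether the tables differ was not tested, and the median of so few genes is moved by any 1 of them.

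**Figure D2:**
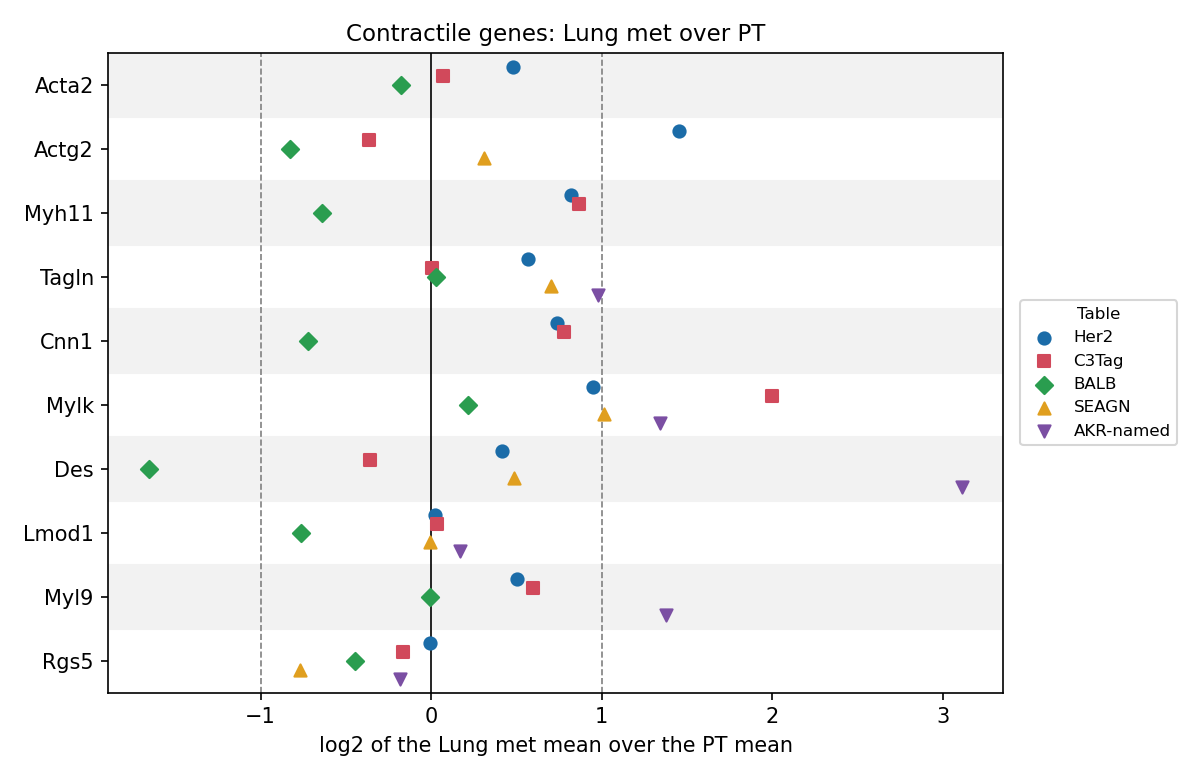
Log2 ratio of the Lung met mean over the PT mean (horizontal axis) of each contractile gene (rows) in the 5 tables (colors and shapes), with dashed lines at 2-fold in either direction. Mylk lies to the right of 0 in 5 of 5 tables, Rgs5 to the left in 5 of 5, and Des spreads from -1.65 in BALB to 3.11 in AKR-named.

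Several of the most typical smooth muscle genes were listed without any mean in part of the tables. In SEAGN these were Acta2, Myh11, Cnn1 and Myl9, 4 of 10 members, where 0.305% of the 17404 listed genes had no mean. In AKR-named they were Acta2, Actg2, Myh11 and Cnn1, again 4 of 10, against 0.646% of 17945 listed genes. In BALB no member lacked a mean, against 0.536% of 17363 genes. Acta2, Myh11 and Cnn1 were thus without a mean in both of these tables, where named genes of that kind numbered 50 in SEAGN and 116 in AKR-named, and 10 of the 50 and of the 116 were common to both. The other 7 common genes were Amtn, Gpa33, Id4, Ntrk3, Oas2, Pip and Rasd2. The reason is not given in the sources used here. Because of it, the values of these genes in SEAGN and AKR-named are unknown, and the group counts there rest on fewer genes.

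Of the actins that form the thin filament, Acta2 stayed within 2-fold and Actg2 passed it in Her2. Acta2, the alpha smooth muscle actin (chromosome 19, 34241090 to 34255590 of GRCm38, minus strand), had a mean of 1051 in Her2 PT and 1464 in Lung met, a log2 ratio of 0.48. In C3Tag its means were 706 and 740 (log2 ratio 0.07). In BALB they were 484 and 429 (log2 ratio -0.18). Acta2 thus had the higher mean in Lung met in 2 of the 3 tables that give its mean. Actg2, the gamma smooth muscle actin (chromosome 6, 83512905 to 83536265, minus strand), is typical of gut and other visceral muscle. Its mean was 39.7 in Her2 PT and 108 in Lung met, a 2.74-fold difference that exceeded the ratio of 98.7% of genes. Actg2 was the Her2 member that passed 2-fold. Elsewhere its means were lower in Lung met in C3Tag (87.1 against 67.6) and BALB (25.4 against 14.4) and higher in SEAGN (17.9 against 22.2). Its log2 ratios there were -0.37, -0.82 and 0.31, and scaling both tissues to the same total turned the C3Tag value to 0.44.

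The kinase that starts contraction had the higher mean in Lung met in 5 of 5 tables. Mylk, myosin light chain kinase (chromosome 16, 34745210 to 35002420, plus strand), had a PT mean of 598 and a Lung met mean of 1154 in Her2 (log2 ratio 0.95). In C3Tag the means were 701 and 2797, a 3.99-fold difference above that of 97.9% of genes. In BALB they were 362 and 420 (log2 ratio 0.22). In SEAGN they were 361 and 731 (log2 ratio 1.02), and in AKR-named 631 and 1603 (log2 ratio 1.34). Mylk passed 2-fold in 3 of the 5 tables, C3Tag, SEAGN and AKR-named, and the SEAGN value lay so close to 2-fold that subtracting the median of all genes put it below. Mylk also has a long form that non-muscle cells such as endothelium make, which a gene total does not separate.

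In BALB the light chain that Mylk phosphorylates had nearly equal means and the myosin heavy chain the lower mean in Lung met. In the other tables that give their means, both genes had the higher mean in Lung met. Myl9, the regulatory light chain (chromosome 2, 156775420 to 156781658, plus strand), had means of 355 in PT and 504 in Lung met in Her2 (log2 ratio 0.51). The C3Tag means were 158 and 239 (log2 ratio 0.60) and those of BALB 122 and 122 (log2 ratio -0.01). In AKR-named they were 590 and 1530 (log2 ratio 1.37), which makes Myl9 and Mylk a pair of 2-fold higher genes in that table. Myh11, the smooth muscle myosin heavy chain (chromosome 16, 14194535 to 14291372, minus strand), is the member most closely tied to mature smooth muscle. Its means were 126 and 222 in Her2 (log2 ratio 0.82), 117 and 214 in C3Tag (log2 ratio 0.87), and 225 and 144 in BALB (log2 ratio -0.64). In both driver models Myh11 stood higher in Lung met and in BALB lower, each within 2-fold.

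Of the proteins that bind actin, Cnn1 followed Myh11, Tagln stood higher in some tables, and Lmod1 had nearly equal means outside BALB. Cnn1, calponin, which slows the sliding of actin over myosin (chromosome 9, 22099216 to 22109630, plus strand), had means of 23.1 and 38.5 in Her2 (log2 ratio 0.74). In C3Tag its means were 49.4 and 84.8 (log2 ratio 0.78), and in BALB 53.8 and 32.6 (log2 ratio -0.72). The order and sign of the Cnn1 ratios were those of Myh11. Tagln, transgelin, an actin-binding protein of the calponin family (chromosome 9, 45929619 to 45936058, minus strand), had means of 962 and 1423 in Her2 (log2 ratio 0.56). They were 194 and 316 in SEAGN (log2 ratio 0.70), and 1630 and 3214 in AKR-named (log2 ratio 0.98). In C3Tag (801 and 805) and BALB (216 and 220) the log2 ratios were 0.01 and 0.03. Tagln had the higher mean in Lung met in 5 of 5 tables, but in C3Tag and BALB the difference was so small that subtracting the median of all genes turned its sign. Lmod1, leiomodin 1, which starts new actin filaments (chromosome 1, 135324807 to 135368065, plus strand), had means of 1359 and 1380 in Her2 and 153 and 157 in C3Tag. In SEAGN they were 80.2 and 79.8 and in AKR-named 302 and 339. Its log2 ratio lay between -0.01 and 0.17 in these 4 tables. BALB was the exception, with Lmod1 means of 78.4 and 46.3 (log2 ratio -0.76).

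Desmin had the widest range of all members, 4.77 on the log2 scale between the lowest and the highest table. Des, the muscle intermediate filament gene (chromosome 1, 75360329 to 75368579, plus strand), had means of 142 in PT and 45.3 in Lung met in BALB, a log2 ratio of -1.65 that exceeded only 0.724% of genes. In C3Tag the means were 358 and 279 (log2 ratio -0.36, or 0.44 with both tissues scaled to the same total). Des was thus lower in Lung met in these tables, and higher in the other 3. In Her2 the means were 162.5 and 217 (log2 ratio 0.42), and in SEAGN 32.8 and 45.9 (log2 ratio 0.49). In AKR-named they were 50.9 and 440, an 8.65-fold difference that exceeded 99.4% of genes. Skeletal muscle, which also makes desmin, was followed by a list of 10 marker genes, of which between 2 and 5 were listed per table. The summed mean of the listed ones was 353 in PT and 31.1 in Lung met in Her2, 5605 and 464 in C3Tag, 4544 and 87.9 in BALB, and 931 and 93.8 in SEAGN. In AKR-named it was 69.4 and 84.2. These sums hold different genes in different tables and were lower in Lung met in 4 of 5 tables, including Her2 and SEAGN, where Des was higher. Acta1, the skeletal actin on that list, had log2 ratios of -4.99 in Her2, -4.66 in C3Tag, -5.85 in BALB, -3.25 in SEAGN and 1.72 in AKR-named. The part of muscle beside the tumor in the Des values was not tested.

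The pericyte gene Rgs5 had nearly equal means in Her2 and the lower mean in Lung met elsewhere. Rgs5, a regulator of G protein signaling that is among the most used markers of pericytes (chromosome 1, 169655501 to 169695813, plus strand), had means of 2817 in PT and 2800 in Lung met in Her2 (log2 ratio -0.01). In C3Tag they were 1052 and 939 (log2 ratio -0.16) and in BALB 494 and 363 (log2 ratio -0.44). In SEAGN they were 567 and 334 (log2 ratio -0.77), and in AKR-named 1260 and 1109 (log2 ratio -0.18). The Rgs5 ratio was below 0 in 5 of 5 tables and within 2-fold throughout, although scaling both tissues to the same total turned the C3Tag value to 0.64. Its close relative Rgs4 had the higher mean in Lung met in 5 of 5 tables, with log2 ratios of 0.76 in Her2, 2.08 in C3Tag, 1.26 in BALB, 1.21 in SEAGN and 2.12 in AKR-named. Among 14 pericyte markers, of which 13 or 14 had a mean, the median log2 ratio was 0.22 in Her2, 0.52 in C3Tag, 0.19 in BALB, 0.32 in SEAGN and 1.09 in AKR-named. Those at least 2-fold higher numbered 4, 3, 6, 4 and 7 in the same order, where 2.38, 7.42, 2.26, 2.86 and 7.31% of all genes were, and 0 were 2-fold lower, against 1.43 to 3.22% of all genes. Averaged over the tables, Gucy1a1, a subunit of the nitric oxide receptor guanylate cyclase, and Cox4i2, a cytochrome c oxidase subunit, had the highest log2 ratios (2.05 and 2.02). Anpep, an aminopeptidase, and Notch3, the vessel wall Notch receptor, had the lowest (-0.21 and -0.19). The summed mean of the pericyte list was 18384 in PT and 19405 in Lung met in Her2, and 15357 and 12723 in AKR-named. In AKR-named the sum was thus lower in Lung met while the median was higher, and Anpep alone had means of 10417 in PT and 5524 in Lung met there.

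Upstream of the members, the regulators as a list had medians near 0, while Ppp1r14a and Cacna1c stood higher in Lung met in most tables. A list of 20 contractile regulators, of which between 18 and 20 had a mean, had median log2 ratios of 0.07 in Her2, 0.26 in C3Tag, 0.04 in BALB, 0.12 in SEAGN and 0.10 in AKR-named. At least 2-fold higher were 3, 5, 1, 1 and 5 of them, and at least 2-fold lower 0, 0, 1, 1 and 0, beside 2.38, 7.42, 2.26, 2.86 and 7.31% of all genes higher and 1.43, 1.70, 2.40, 3.22 and 1.73% lower. The single regulator past 2-fold in either direction in BALB and in SEAGN is close to those shares. Ppp1r14a, which inhibits the myosin phosphatase and so acts in the direction of the kinase, had the highest log2 ratio on average, 1.81. The Her2 means were 11.8 in PT and 31.5 in Lung met, those of C3Tag 24.2 and 68.9, and those of BALB 7.64 and 15.5. In SEAGN it was 5.02 and 19.6 and in AKR-named 10.6 and 92.4, so that Ppp1r14a was at least 2-fold higher in Lung met in 5 of 5 tables, from means that are low throughout. Cacna1c, the pore of the L-type calcium channel, came next with log2 ratios of 1.06, 1.81, -0.02, 0.50 and 1.69 in the same order. The lowest were Kcnma1, a calcium-activated potassium channel, at -0.44 on average over 4 tables, and Itpr1, a calcium release channel, at -0.23 over 5. Kcnma1 split between a log2 ratio of 1.46 in C3Tag and -1.32 in BALB, -1.01 in SEAGN and -0.88 in AKR-named. Another 16 smooth muscle genes, of which 14 or 15 had a mean, had medians of 0.09, -0.03, -0.26, -0.27 and 0.35. On that list Jph2, a membrane junction protein, had the highest average (0.92), followed by Nexn, a Z-disc actin binder (0.62), and Susd5 had the lowest (-1.75 over 3 tables). For 24 relatives of the members, of which between 16 and 18 had a mean, the medians were 0.02, 0.28, 0.07, -0.04 and 0.58.

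**Figure D3:**
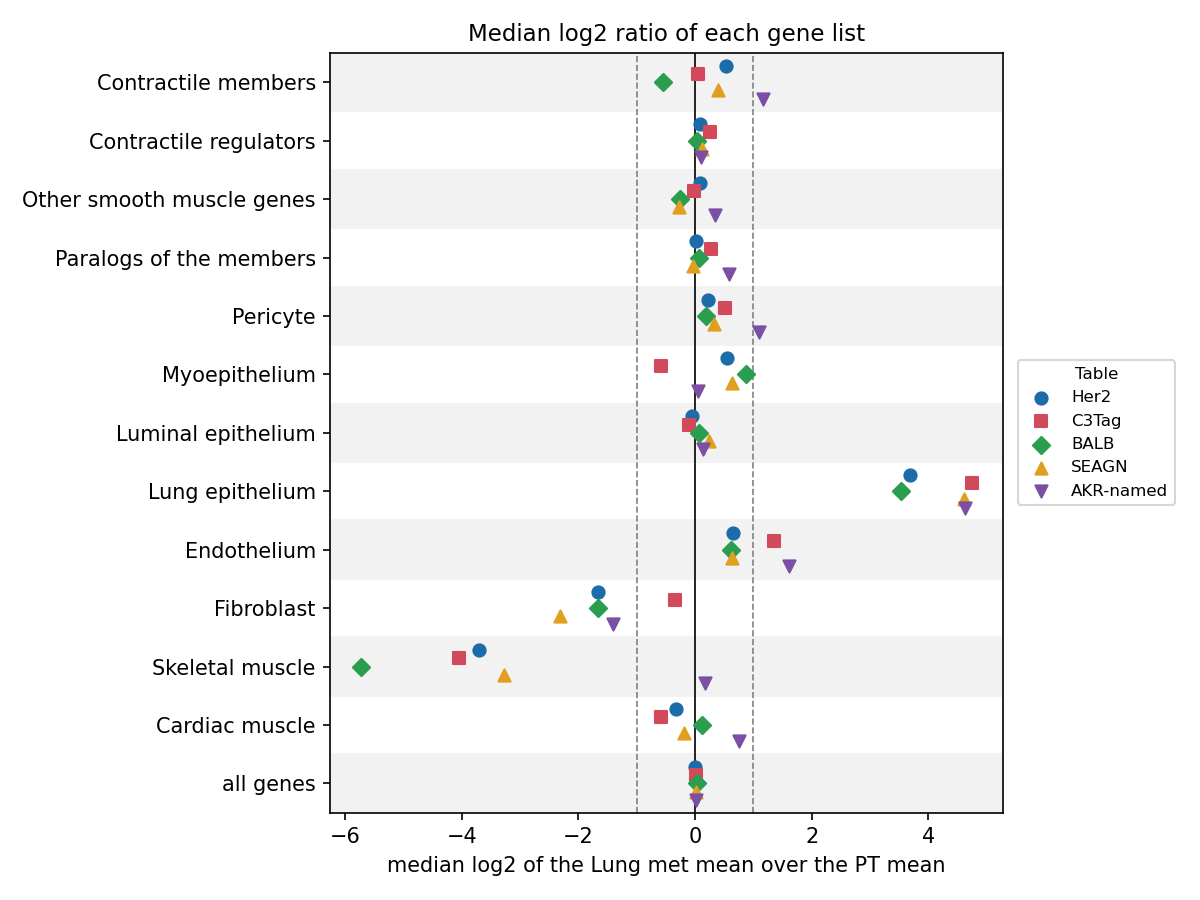
Median log2 ratio of the Lung met mean over the PT mean (horizontal axis) for the contractile members and each list of related or cell type genes (rows) in the 5 tables (colors and shapes), with dashed lines at 2-fold. Lung epithelium lies at 3.54 or above and fibroblast at -0.34 or below in 5 of 5 tables, and the members lie between.

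Among marker lists of other cell types, the median lay above 0 for endothelium and lung epithelium and below 0 for fibroblasts in each table. For 10 endothelial genes the median log2 ratio was 0.65 in Her2, 1.34 in C3Tag, 0.62 in BALB, 0.64 in SEAGN and 1.61 in AKR-named, and their summed mean in Lung met was 1.65, 2.78, 1.52, 1.61 and 3.43 times that in PT. Of these genes, Vwf and Cldn5 had the highest average log2 ratios (2.49 and 2.39) and Emcn and Kdr the lowest (0.34 and 0.64). Emcn had the lower mean in Lung met in BALB (log2 ratio -0.22) and SEAGN (-0.33). For lung epithelium, where 7 of 12 markers had a mean, the median ran from 3.54 in BALB to 4.75 in C3Tag. Lamp3 and Sftpd were highest on average (6.17 and 4.90). Aqp5 was lowest (0.34), with log2 ratios of -0.13 in Her2 and -0.66 in BALB. The summed mean of the lung list in Lung met was 1.00, 10.9, 0.912, 2.51 and 2.93 times that in PT, in the same order of tables. Aqp5 made up most of the PT sum throughout. In Her2 it had means of 57616 in PT, where the sum was 59042, and 52674 in Lung met. In BALB its means were 3463 in PT, where the sum was 3512, and 2191 in Lung met. For both, 6 lung genes had the higher mean in Lung met and only Aqp5 the lower. The ratios of 1.00 and 0.912 thus follow Aqp5 and not the other lung genes. Fibroblast genes had medians of -1.66, -0.34, -1.67, -2.32 and -1.41, with Lum lowest on average (-3.98). Not all of them were lower, since Pdgfra had log2 ratios of 0.52, 0.80, 0.55, 0.44 and 0.94 and in C3Tag 4 of 10 fibroblast genes had the higher mean in Lung met. Of 12 myoepithelial genes, 8, 9, 11, 11 and 9 had a mean in the same order of tables, so their medians and sums hold different genes. These genes mark the mammary cells that make many of the members. Their medians were 0.55 in Her2, -0.59 in C3Tag, 0.87 in BALB, 0.63 in SEAGN and 0.06 in AKR-named. Their summed mean was 3316 in PT and 4546 in Lung met for Her2, 13016 and 8022 for C3Tag, and 2081 and 3809 for BALB. In SEAGN it was 2177 and 3273 and in AKR-named 10848 and 10755. In BALB the medians of the members and of the myoepithelial list had opposite signs (-0.54 and 0.87). They also did in C3Tag, but the member median there was only 0.05, a value near 0. Scaling both C3Tag tissues to the same total raised that member median to 0.85. Such scaling subtracts the log2 ratio of the totals (-0.80) from each C3Tag ratio, and so puts the myoepithelial median above 0 as well. The opposite signs in C3Tag thus depend on the scaling. Cardiac muscle, another source of desmin, had 3 of 10 markers with a mean and medians between -0.59 in C3Tag and 0.75 in AKR-named. Luminal epithelium lay between -0.10 and 0.23. The part of these cell types in the values of the members was not tested.

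Levels of different genes in the same tissue were set side by side per length. Per kb of annotated exon, Rgs5, Tagln and Acta2 were the highest members in Her2 PT (620, 484 and 479 normalized counts per kb) and Cnn1 the lowest (8.44). In C3Tag PT Tagln, Acta2 and Rgs5 led (403, 322 and 231 normalized counts per kb) and Myh11 was lowest (15.4). In AKR-named PT Tagln was highest (820 per kb) and Des lowest (13.6) among the 6 genes with a mean. In C3Tag Lung met Mylk had reached 248 per kb, above the 207 of Rgs5. BALB and SEAGN use identifiers of the BALB/cJ annotation, for which no lengths were used.

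The make-up of the program can be followed between tables by dividing each mean by that of Tagln in the same tissue, which removes the scale of the table but not differences in annotation or in how the authors averaged. The quotient is not per length, so only its values for the same gene are compared, and whether it lies above or below 1 has no meaning. Tagln was taken because it had a mean in 5 of 5 tables, a choice made after the values were seen. Lmod1 had its highest quotients in Her2, 1.41 in PT and 0.970 in Lung met. In the other tables it was between 0.185 (AKR-named) and 0.413 (SEAGN) in PT and between 0.106 and 0.252 in Lung met. Her2 and C3Tag share an annotation and a method of averaging, and there the Lmod1 value was 1.41 against 0.191 in PT. Des was lowest in AKR-named PT at 0.0312, against 0.137 in Lung met of that table. With no values of single animals, the spread of these quotients is unknown.

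**Figure D4:**
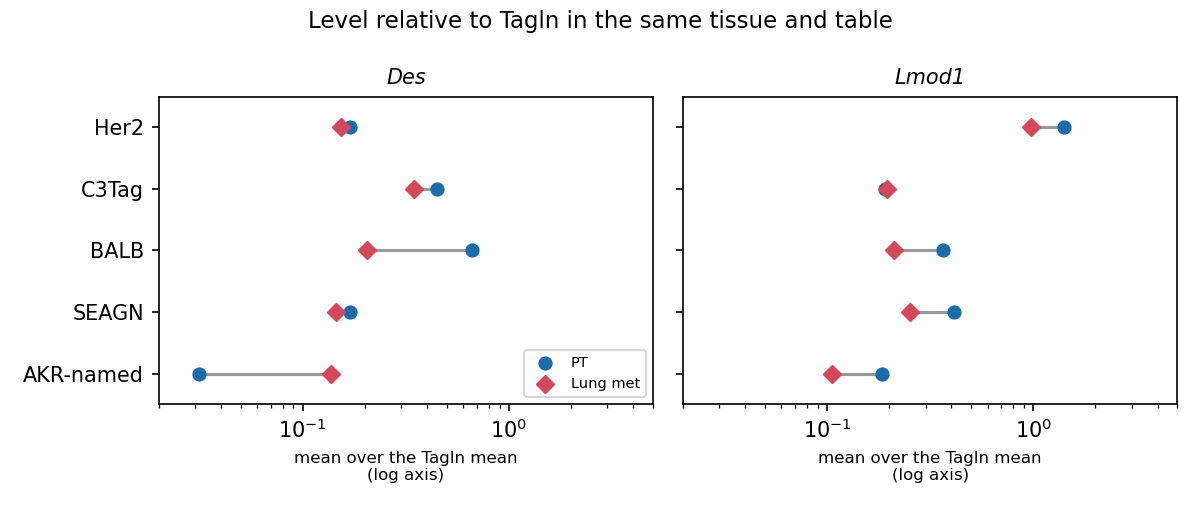
Mean of Des and Lmod1 divided by the Tagln mean of the same tissue (horizontal log axis) in the 5 tables (rows), for PT (blue circles) and Lung met (red diamonds). Lmod1 lies further right in Her2 (1.41 in PT) than in the other tables, and Des furthest left in AKR-named PT (0.0312).

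Genes whose log2 ratios over the 5 tables lay nearest to the member medians were sought among 11791 genes with a mean of at least 10 in each table, by Euclidean distance. The members themselves were left out, and their medians in SEAGN and AKR-named rest on 6 genes each. Likeness to the medians is not likeness to each member, as Mylk was higher in Lung met in 5 of 5 tables and Rgs5 lower in 5 of 5. The nearest were Rai2 (distance 0.188), Mme (0.269), Stap1 (0.575), B430010I23Rik (0.635) and Nox4 (0.665). Mme encodes neprilysin, a surface peptidase of myoepithelium and of some stromal cells, and is on the myoepithelial list. Its log2 ratios were 0.55 in Her2, 0.19 in C3Tag, -0.61 in BALB, 0.18 in SEAGN and 1.17 in AKR-named. Mme did not move with its list in each table, as it was the 1 gene of 11 on the myoepithelial list with the lower mean in BALB Lung met, and in C3Tag it was higher where 6 of 9 were lower. Over 5 points that share mice of related crosses, such likeness is a description only.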

How the data were processed

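RNA was sequenced from PTs and Lung mets of 6 mouse models. Total RNA was made into stranded ribosomal-depleted libraries, per the labels. The submitters' processing notes name STAR 2.7.8a, DESeq2 and mm39, whereas the methods name Partek Flow and both mm9 and mm10. The deposited tables hold the authors' comparisons of Lung met with PT, by Gene Specific Analysis in the driver models and DESeq2 in the PyMT-F1 models. Their p-value, FDR, ratio and fold change columns are the authors' own comparisons and were not used. The Myc table holds p-value and FDR only and was not analysed here. The values used are a signal, the authors' least-squares mean of normalized counts per tissue, deposited without single samples, so depth, spread and tests could not be had. The design allowed for that case. Of the C3Tag PTs, 7 are labelled here, and which samples entered the authors' means is not known.

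From these means the log2 ratio, counts at 2-fold and medians were computed with Python 3.11.15, numpy 2.4.6, pandas 2.3.3, biopython 1.88 and matplotlib 3.10.9, and the steps were tested on simulated data. The members and lists were chosen with earlier results of these data known. Genes named besides the members are the 2 highest and 2 lowest of a list by average log2 ratio and the 5 nearest by profile. Positions and exon lengths are from GENCODE M21 on GRCm38, promoters from RefSeq. Alternatives were centring on the median of all genes, equal totals, a pseudocount of 1, a fold of 1.5, an average of both means of at least 10, leaving out Rgs5 or Des, and, added after seeing the data, the 5 members with a mean in all 5 tables.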

Additional observations from a re-analysis of the deposited data

How the results depend on the processing

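Scaling both tissues to the same total moved the C3Tag count of 2-fold higher members to 4 and the median to 0.85, because 1 transcript, Gm22614, made up 38.3% of the C3Tag PT total. It also turned the sign of 5 of 42 ratios, namely Lmod1 in Her2, Actg2, Des and Rgs5 in C3Tag and Tagln in BALB, and none of these was past 2-fold. The SEAGN count of 2-fold higher members became 0 and the AKR-named median 1.05 with equal totals. Subtracting the median of all genes gave a SEAGN count of 0 and turned the sign of 2 of 42 ratios, Tagln in C3Tag and BALB. A pseudocount of 1 turned 0 of 42. At a fold of 1.5, higher members numbered 4 in Her2, 4 in C3Tag and 2 in SEAGN, and lower members 5 in BALB and 1 in SEAGN. The AKR-named median was 1.34 without Rgs5 and 0.98 without Des. Over the 5 members with a mean in all 5 tables, an alternative chosen after seeing the data, the Her2 count was 0 and its median 0.42, and the AKR-named median was 0.98. Requiring an average of both means of at least 10 removed no member, as the lowest member mean was 14.4 (Actg2 in BALB Lung met). The 15 of 15 counts and medians were therefore unchanged by construction, which says nothing about how stable they are.

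No paired analysis was possible because only group means were used, although PTs and Lung mets share animals. Leaving out single samples was not run for the same reason. The spread between animals is unknown, which limits each value given here.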
